A study of Homo sapiens with 6 samples.

Results

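NRF2, the product of NFE2L2, its inhibitor KEAP1 and 8 of its antioxidant target genes were followed on whole-transcript arrays of PC-3 cells. The 10 genes were chosen by name, as probesets whose platform annotation gave that single gene symbol. Each of the 10 had 1 such probeset, out of 18404 genes in all. PC-3 is an established human prostate carcinoma line that grows without androgen, and menthol is the cooling compound of mint. The menthol group was 3 arrays of PC-3 cells given menthol in ethanol, and the vehicle group was 3 arrays of PC-3 cells given ethanol alone. Both groups carried 0.1% ethanol and were kept in DMEM with 10% fetal bovine serum, and each array was made from 300 ng of RNA. The sources used here give neither the menthol dose nor the length of treatment, and 1 cell line was studied.

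NRF2 is a transcription factor that KEAP1, an adaptor of a cullin ubiquitin ligase, holds at a low level in unstressed cells. When oxidants or reactive compounds modify cysteines of KEAP1, NRF2 escapes degradation, pairs with a small MAF protein and binds antioxidant response elements in its target genes. The control acts mostly on NRF2 protein, which arrays do not measure. The targets here make glutathione (GCLC, GCLM), run the thioredoxin system (TXNRD1, SRXN1), break down heme (HMOX1), reduce quinones (NQO1), supply NADPH (ME1) or restrain growth under oxidative stress (OSGIN1).

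Stretches of member promoters that hold the antioxidant response element motif are shown because this is the sequence through which NRF2 reaches its targets. The 250 bases before each RefSeq start site (assembly GRCh38.p14) were searched on both strands for TGACNNNGC and for TGANTCAGC, which overlap where a site meets both. Promoters were listed for 9 of the 10 genes (all but HMOX1), in 12 windows, and 6 windows of 5 genes held a match. Each stretch is written 5′ to 3′ on the gene's own strand, with the matched bases in capitals.
KEAP1, start site 2 (chr19:10502772-10502850, minus strand): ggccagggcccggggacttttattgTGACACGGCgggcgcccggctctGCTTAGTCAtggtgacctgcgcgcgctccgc
GCLM (chr1:93909431-93909489, minus strand): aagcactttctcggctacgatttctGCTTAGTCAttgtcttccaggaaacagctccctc
TXNRD1, start site 1 (chr12:104215655-104215713, plus strand): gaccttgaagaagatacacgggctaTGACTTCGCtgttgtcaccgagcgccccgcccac
TXNRD1, start site 2 (chr12:104286905-104286963, plus strand): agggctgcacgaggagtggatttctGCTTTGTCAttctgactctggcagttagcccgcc
OSGIN1 (chr16:83953116-83953174, plus strand): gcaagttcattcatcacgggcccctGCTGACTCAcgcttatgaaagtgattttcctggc
ME1 (chr6:83431155-83431213, minus strand): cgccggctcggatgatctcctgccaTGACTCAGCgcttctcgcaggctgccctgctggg

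The same 9 letters, GCTTAGTCA, stood before GCLM and before start site 2 of KEAP1, which held a further match on the other strand. The match before ME1 met both motifs, and the match before OSGIN1 met TGANTCAGC alone. Of all 35116 promoter windows, 10.9% held TGACNNNGC, 1.11% held TGANTCAGC and 11.5% held either. No window of NFE2L2, NQO1, GCLC or SRXN1 held a match, nor did that of start site 1 of KEAP1. A match is a description of the sequence and not a measured binding site.

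**Figure D1:**
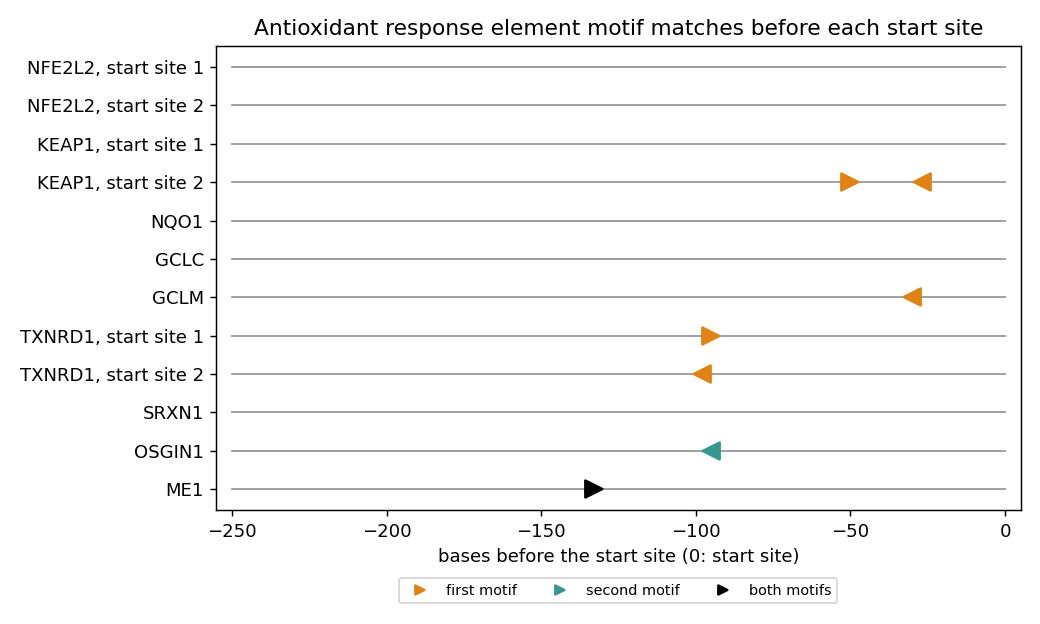
Position of motif matches in the 250 bases before each start site, one line per promoter window, with the start site at 0. Triangles point along the strand of the match (right: the gene's strand); orange is TGACNNNGC, teal is TGANTCAGC and black is both. Matches stand in 6 of the 12 windows.

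Of the 10 genes, HMOX1, NQO1 and GCLM rose with menthol, SRXN1 and ME1 fell, and NFE2L2, KEAP1, GCLC, TXNRD1 and OSGIN1 did not pass the test. The test was limma on log2 intensity, fitted over all 18404 genes, with a Benjamini-Hochberg adjusted p under 0.05 as the threshold. Each change is the menthol mean minus the vehicle mean of log2 intensity, with the standard error (SE) of the fit. Of all genes, 14.6% passed as higher and 14.5% as lower, so 3 genes higher and 2 lower among 10 is a description of these genes and not a result about the group. The median log2 change of the 10 genes was 0.12, and that of all genes was 0.032. Nothing in the labels marks the replicates as separate cultures, so the p-values measure the spread between these arrays, which may be technical. In RNA from a whole culture, fewer cells of a type and less RNA per cell cannot be told apart.

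**Figure D2:**
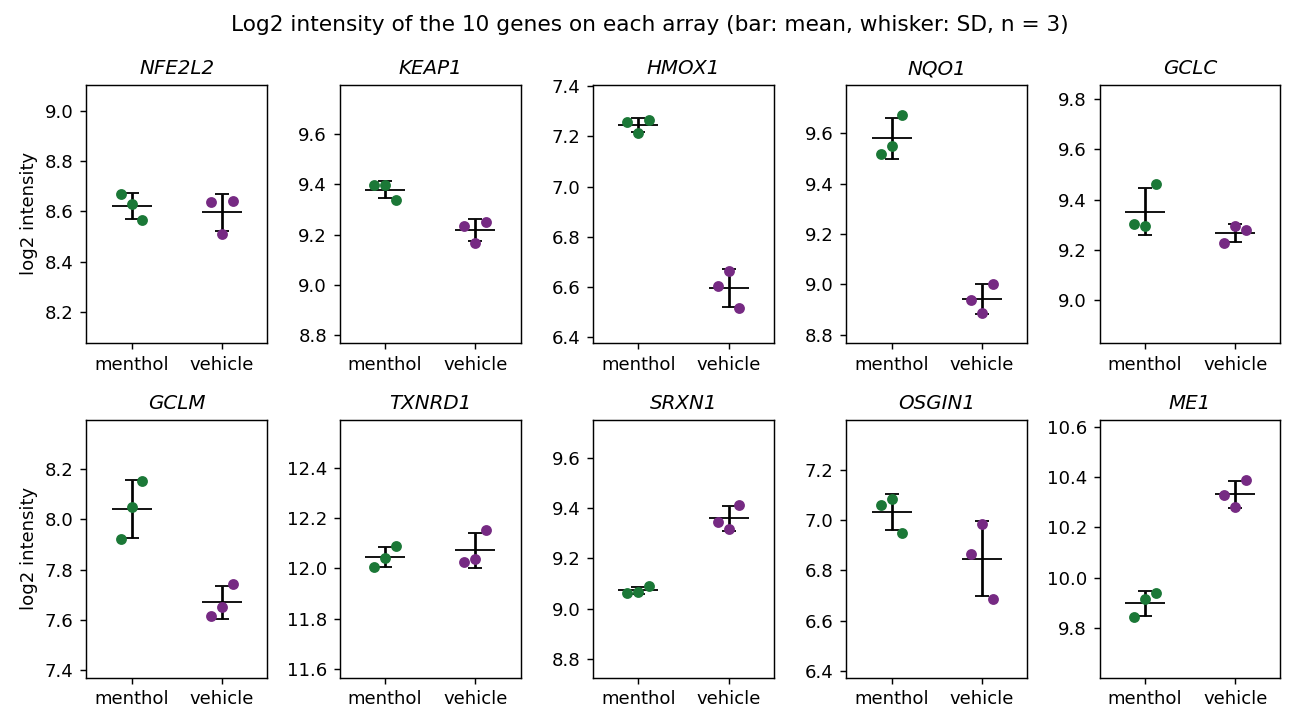
Log2 intensity (vertical axes, of equal span) of the 10 genes on the 3 menthol arrays (green) and the 3 vehicle arrays (purple), with mean and SD. The groups of HMOX1, NQO1, GCLM, SRXN1 and ME1 are apart, and those of NFE2L2, TXNRD1 and OSGIN1 overlap.

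The gene of the transcription factor itself showed no difference past the threshold. NFE2L2 had log2 intensities of 8.67, 8.63 and 8.57 in menthol replicates 1, 2 and 3, against 8.64, 8.51 and 8.64 in vehicle replicates 1, 2 and 3. The 2 ranges overlapped. The log2 change was 0.024 ± 0.066 (SE, n = 3 per group), with a 95% interval of -0.13 to 0.18 and a limma adjusted p of 0.822. Without vehicle replicate 2 the value was -0.019.

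KEAP1, which marks NRF2 for degradation, had log2 intensities of 9.40, 9.40 and 9.34 in the menthol replicates, against 9.24, 9.17 and 9.25 in the vehicle replicates. All menthol values lay above all vehicle values. The log2 change was 0.16 ± 0.06, with a 95% interval of 0.02 to 0.30, and the limma adjusted p of 0.0835 missed the threshold. KEAP1 did pass, as higher, with the arrays normalized by quantiles (adjusted p = 0.0300) or cyclic loess (0.0243), with dim genes left out by either filter (0.0458 and 0.0253) and with an intensity-trended prior (0.0214), within a range of 0.0214 to 0.236 over its alternatives. The within-array difference of NFE2L2 minus KEAP1 averaged -0.76 ± 0.02 (SD, n = 3) in menthol arrays and -0.62 ± 0.03 in vehicle arrays, without overlap. The exact permutation test of this difference, two-sided, gave p = 0.1, the smallest that 3 against 3 arrays allow.

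HMOX1, the inducible enzyme that breaks heme into biliverdin, carbon monoxide and iron, showed the largest increase of the 10 genes. Its log2 intensities were 7.26, 7.21 and 7.27 in the menthol replicates, against 6.60, 6.67 and 6.52 in the vehicle replicates. The 3 menthol arrays lay close together and well above the vehicle arrays. The gene rose by 0.65 ± 0.06, or 1.57-fold (limma adjusted p = 0.00041), a change larger in size than that of 95.6% of genes.

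NQO1, which reduces quinones and is a standard marker of NRF2 activity, changed by nearly the same amount. Its log2 intensities were 9.52, 9.55 and 9.67 in the menthol replicates, against 8.94, 8.89 and 9.00 in the vehicle replicates. The groups did not overlap. It rose by 0.64 ± 0.07, or 1.56-fold (limma adjusted p = 0.00059). HMOX1 and NQO1 were the 2 of the 10 genes that passed the test and were also at least 1.5-fold higher, a rule met by 2.99% of all genes, while 0 of the 10 passed and were at least 1.5-fold lower, against 2.62% of all genes.

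Glutathione synthesis begins with glutamate-cysteine ligase, whose catalytic subunit is GCLC and whose modifier subunit is GCLM. GCLM had log2 intensities of 7.92, 8.05 and 8.15 in the menthol replicates, against 7.62, 7.65 and 7.74 in the vehicle replicates. Its groups did not overlap, and it rose by 0.37 ± 0.08, or 1.29-fold (limma adjusted p = 0.0101). GCLC had 9.30, 9.30 and 9.46 in the menthol replicates, against 9.23, 9.29 and 9.28 in the vehicle replicates. The lowest menthol value and the highest vehicle value of GCLC were nearly equal, and its log2 change of 0.086 ± 0.069 did not pass (95% interval -0.07 to 0.25, limma adjusted p = 0.393).

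The subunits were also compared within each array. GCLC minus GCLM was 1.38, 1.25 and 1.31 on the log2 scale in the menthol replicates, against 1.61, 1.64 and 1.54 in the vehicle replicates. Every menthol array had a smaller difference than every vehicle array, by 0.28 on average. The exact permutation test, two-sided, gave p = 0.1, the smallest this design allows. The probesets are different, so the sign of the difference within an array does not say which subunit was more abundant.

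Of the thioredoxin genes, SRXN1 fell and TXNRD1 did not pass. TXNRD1, the cytosolic thioredoxin reductase, had log2 intensities of 12.01, 12.04 and 12.09 in the menthol replicates, against 12.02, 12.04 and 12.15 in the vehicle replicates. These values overlapped throughout. The log2 change was -0.026 ± 0.064 (95% interval -0.18 to 0.12, limma adjusted p = 0.796), and its sign turned under quantile normalization (0.053), with cyclic loess (0.079) and without vehicle replicate 3 (0.014).

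SRXN1, sulfiredoxin, restores peroxiredoxins that have been over-oxidised. Its log2 intensities were 9.06, 9.07 and 9.09 in the menthol replicates, against 9.34, 9.32 and 9.41 in the vehicle replicates. The menthol arrays were nearly alike and all below the vehicle arrays. SRXN1 fell by 0.29 ± 0.06, which made vehicle 1.22-fold higher (limma adjusted p = 0.00954).

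ME1, the cytosolic malic enzyme, yields NADPH, the reducing power that both the glutathione and the thioredoxin systems draw on. Its log2 intensities were 9.84, 9.92 and 9.94 in the menthol replicates, against 10.33, 10.28 and 10.39 in the vehicle replicates. The groups were clearly apart. ME1 fell by 0.43 ± 0.06, which made vehicle 1.35-fold higher (limma adjusted p = 0.00209).

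OSGIN1, a growth inhibitor induced by oxidative stress, had log2 intensities of 7.06, 7.08 and 6.95 in the menthol replicates, against 6.86, 6.98 and 6.69 in the vehicle replicates. Vehicle replicate 2 lay within the menthol range, and the vehicle values were the most spread of the 10 genes (SD 0.15). The log2 change of 0.19 ± 0.09 did not pass (95% interval -0.02 to 0.39, limma adjusted p = 0.156).

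**Figure D3:**
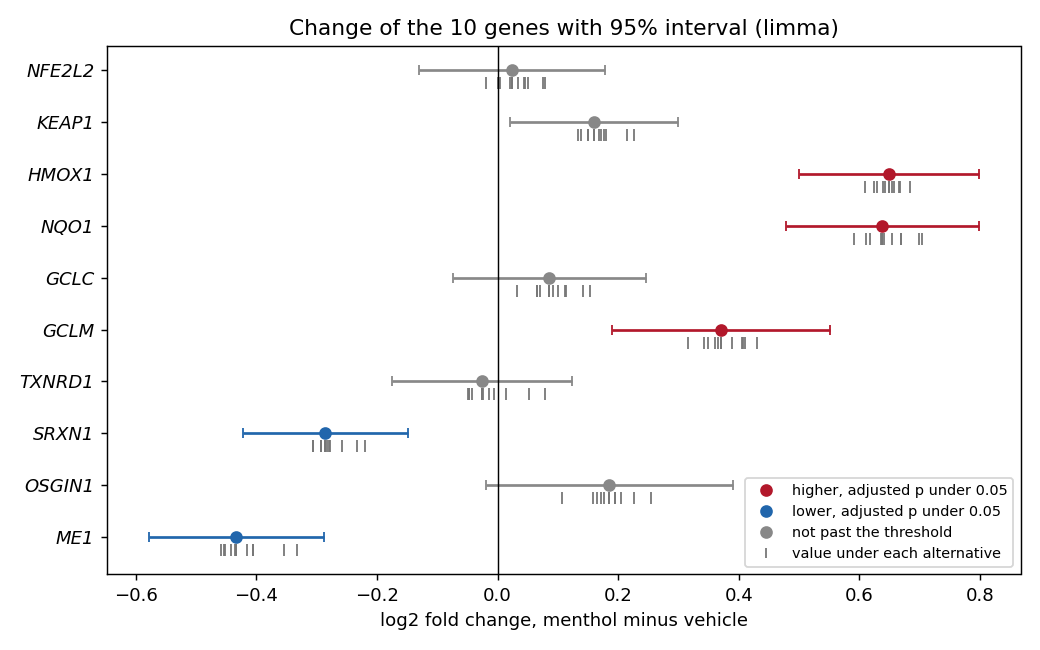
Log2 change (menthol minus vehicle, horizontal axis) of the 10 genes with the 95% interval of the limma fit, red for higher, blue for lower and grey for not past the threshold. Grey ticks under each point are the values under the alternatives, and those of NFE2L2 and TXNRD1 lie on both sides of 0.

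The calls on HMOX1, NQO1, GCLM, SRXN1 and ME1 held in each alternative fit. Filters on dim genes, other uses of probesets, another prior and the replicate block left the change of each member unaltered. In those fits only the adjusted p could differ. HMOX1 changed by 0.61 to 0.68 over the 16 alternative fits, NQO1 by 0.59 to 0.70 and GCLM by 0.32 to 0.43. SRXN1 changed by -0.31 to -0.22 and ME1 by -0.46 to -0.33. The highest limma adjusted p over these fits was 0.0407, that of GCLM with 1 array left out. In 5 of the 10 genes all menthol values were higher than all vehicle values, against 23.5% of all genes, and in 2 all were lower, against 21.7%.

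On these arrays the direction of change varied with brightness. Among the 4601 brightest genes 17.2% rose and 26.9% fell, and among the 4601 dimmest 10.3% rose and 1.91% fell. Of the 10 genes 7 lay among the 4601 brightest, and of these NQO1 rose and SRXN1 and ME1 fell. HMOX1, GCLM and OSGIN1 were among the next 4601. The part of brightness in the changes was not tested. The median log2 change of all genes shifted by -0.021 to 0.0034 under the other scalings, but single genes moved further. All 7 bright members had higher changes under quantile normalization and cyclic loess than with the deposited scaling. ME1 changed by -0.43 as deposited, by -0.33 with quantiles and by -0.35 with cyclic loess. For TXNRD1 these values were -0.026, 0.053 and 0.079, and for HMOX1, which was less bright, 0.65, 0.67 and 0.66.

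**Figure D4:**
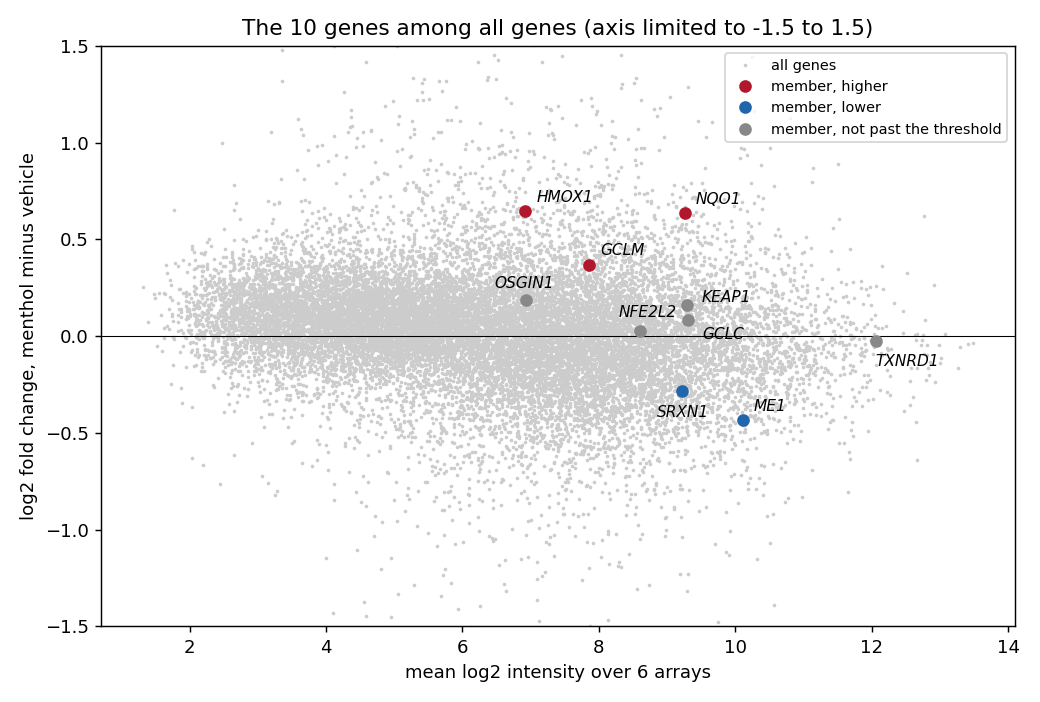
Log2 change (menthol minus vehicle, vertical axis, limited to 1.5 on either side of 0, which leaves out 46 genes) against mean log2 intensity over the 6 arrays (horizontal axis). Grey points are all genes, and coloured points are the 10 genes, red for higher, blue for lower and dark grey for not past the threshold.

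The cells carried epithelial transcripts. KRT8, KRT18, EPCAM and CDH1 ranked between the 87.6th and 99.0th percentile of genes by brightness, which is a rank of signal and not of abundance, and all 4 rose with menthol. KLK3, the gene of prostate-specific antigen, was dim (32.2nd percentile) and did not pass. Of the markers of other cells, 1 of 4 leukocyte, 2 of 4 endothelial and 2 of 4 fibroblast genes rose and 0 fell. Beside these counts, 14.6% of all genes rose and 14.5% fell. Of the 4601 brightest genes, where the 4 epithelial genes lay, 17.2% rose and 26.9% fell. Of the 4601 dimmest 10.3% rose and 1.91% fell. Each marker list is short, so its count is a description of these genes and not a result about a cell type. By brightness the leukocyte genes ranked from the 2.96th percentile (PTPRC) to the 87.2nd (CD68, which rose by 0.29), the endothelial genes from the 19.1st (VWF) to the 48.6th (CLDN5), and the fibroblast genes from the 0.717th (LUM) to the 70.7th (COL1A1, with a change of -0.20 that did not pass). The summed linear intensity was 621 to 673 in menthol arrays and 523 to 558 in vehicle arrays for leukocyte genes, 174 to 185 and 136 to 152 for endothelial genes, and 260 to 284 and 284 to 311 for fibroblast genes. A linear sum follows its brightest gene. CD68 made up most of the leukocyte sum, with mean log2 intensities of 9.21 in menthol arrays and 8.92 in vehicle arrays. COL1A1 made up most of the fibroblast sum, with 7.71 and 7.91. The sums thus do not describe a cell type. The part of these markers in the results on antioxidant genes was not tested.

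A wider list of 80 antioxidant genes, of which 72 were measured, moved in both directions. Of the 72, 17 rose and 19 fell, or 23.6% and 26.4%, beside 14.6% and 14.5% of all genes. The median log2 change of the list was -0.015. Of the 42 that lay among the 4601 brightest genes 21.4% rose and 26.2% fell, against 17.2% and 26.9% of all genes of that brightness. With 1 array left out the number that rose was 9 to 14 and the number that fell 11 to 16: without vehicle replicate 1, 9 rose, without menthol replicate 2, 11 rose, and without vehicle replicate 3, 11 fell. Over the same omissions 1950 to 2402 of all genes rose and 1851 to 2472 fell, against 2683 and 2670 with all 6 arrays.

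**Figure D5:**
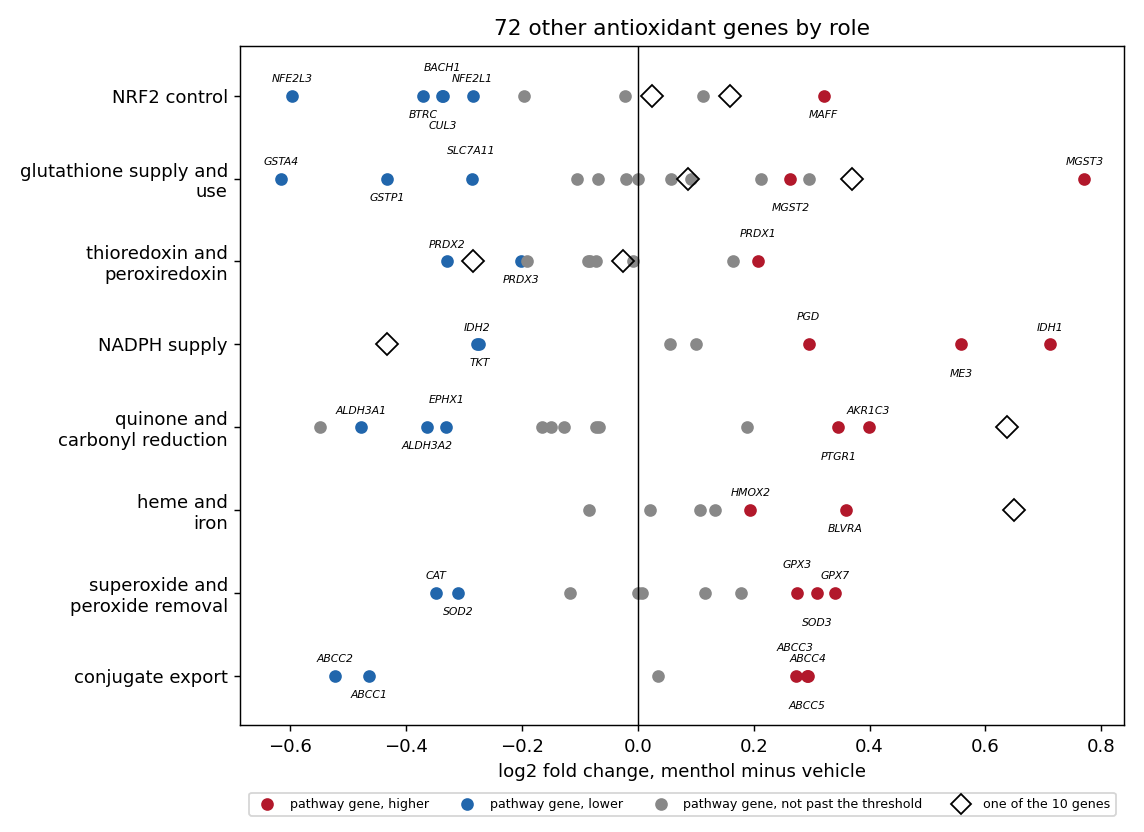
Log2 change (menthol minus vehicle, horizontal axis) of 72 other antioxidant genes by role, red for higher, blue for lower and grey for not past the threshold. Open diamonds are the members with the same role, so that HMOX1 and NQO1 stand at the right and ME1 at the left of their rows; OSGIN1 has no row.

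Of 9 other genes that control NRF2 or act beside it, 5 fell and 1 rose. Of all genes 14.5% fell and 14.6% rose, and of the 4601 brightest 26.9% fell and 17.2% rose. The same shares stand beside the count of each role below. Each role holds few genes, so its count is a description of these genes and not a result about the role. NFE2L3, a relative of NRF2, fell by 0.60 ± 0.07 (limma adjusted p = 0.00087). BTRC, an adaptor of another ligase that degrades NRF2, fell by 0.37 ± 0.08, and did not pass without vehicle replicate 1 (adjusted p = 0.0528). BACH1, a repressor that competes with NRF2 at HMOX1, fell by 0.34 ± 0.10.

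The other calls among the control genes ended when some arrays were left out. BACH1 passed in the fit of 6 arrays (adjusted p = 0.0406) but of the omissions passed only without vehicle replicate 2, with adjusted p up to 0.113 in the others, nor did it pass with array weights (0.0542). The small MAF gene MAFF rose by 0.32 ± 0.10 and did not pass without menthol replicate 2 or 3 or vehicle replicate 2 or 3 (adjusted p up to 0.12). MAFG, a brighter small MAF gene, changed by -0.20 ± 0.06 without overlap but did not pass (limma adjusted p = 0.0532). MAFG was named after its value was seen, and MAFK was not measured. CUL3, the cullin that KEAP1 binds, and NFE2L1, another relative of NRF2, were chosen after their values were seen. CUL3 fell by 0.34 ± 0.10 but did not pass without menthol replicate 1 or 2 or vehicle replicate 1 or 3 (adjusted p up to 0.115), nor under quantile or cyclic loess normalization. NFE2L1 fell by 0.29 ± 0.06 (limma adjusted p = 0.0135), and of its alternatives did not pass without vehicle replicate 1 (adjusted p = 0.0515).

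Among 13 further genes of glutathione supply and use, 2 rose and 3 fell. MGST3, a membrane-bound glutathione transferase, had log2 intensities averaging 9.62 in menthol arrays and 8.85 in vehicle arrays. Its increase of 0.77 ± 0.06 (limma adjusted p = 0.00021) was the largest of the wider list. MGST2, of the same family, rose by 0.26 ± 0.06 and did not pass without vehicle replicate 1 (adjusted p = 0.0604).

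The transferase genes GSTA4 and GSTP1 fell. GSTA4, which clears lipid aldehydes, fell by 0.62 ± 0.07 and GSTP1 by 0.43 ± 0.09. The other transferase genes did not pass, with changes of 0.30 for GSTO1, 0.21 for GSTM3, 0.091 for GSTM4 and -0.021 for MGST1. SLC7A11, which imports the cystine used for glutathione, fell by 0.29 ± 0.08, a call that of the omissions held only without menthol replicate 3 (adjusted p up to 0.0868).

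Of 9 further thioredoxin and peroxiredoxin genes 1 rose and 2 fell. PRDX2, a cytosolic peroxidase that SRXN1 can restore, fell by 0.33 ± 0.06 (limma adjusted p = 0.00755). PRDX1 rose by 0.21 ± 0.06 and PRDX3, the mitochondrial enzyme, fell by 0.20 ± 0.06. Neither call was firm: with 1 array left out PRDX1 passed only without menthol replicate 1 (adjusted p 0.0356 to 0.104) and PRDX3 in 0 of 6 fits (0.0505 to 0.12). PRDX1 also missed the threshold with equal array medians (0.063), and PRDX3 under quantile normalization (0.19) and cyclic loess (0.177).

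The other suppliers of NADPH went both ways, and of 7 genes 3 rose and 2 fell. IDH1, the cytosolic isocitrate dehydrogenase, averaged 10.76 in menthol arrays and 10.05 in vehicle arrays and rose by 0.71 ± 0.06 (limma adjusted p = 0.00029). ME3, a mitochondrial malic enzyme, rose by 0.56 ± 0.07, and PGD, of the pentose phosphate pathway, by 0.29 ± 0.06.

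IDH2, the mitochondrial isocitrate dehydrogenase, fell by 0.28 ± 0.06, and TKT, transketolase, fell by 0.27 ± 0.06. Both calls ended without some arrays: IDH2 without menthol replicate 2 or vehicle replicate 2 or 3 (adjusted p up to 0.0552), and TKT without menthol replicate 2 or vehicle replicate 3 (adjusted p up to 0.0587) and under quantile normalization (adjusted p = 0.065). The cytosolic enzymes ME1 and IDH1 thus changed in opposite directions, as did the malic enzymes ME1 and ME3.

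Of 12 further genes of quinone and carbonyl reduction 2 rose and 3 fell. PTGR1, which reduces unsaturated aldehydes and ketones, rose by 0.35 ± 0.06 (limma adjusted p = 0.00477). AKR1C3, a ketosteroid reductase, rose by 0.40 ± 0.10, but did not pass without menthol replicate 3 or vehicle replicate 1 or 3 (adjusted p up to 0.0608). AKR1C3 has close copies in AKR1C1 and AKR1C2, whose transcripts its probes may also bind, so its value is uncertain. The aldehyde dehydrogenases ALDH3A1 and ALDH3A2 fell by 0.48 ± 0.08 and 0.36 ± 0.07, and the epoxide hydrolase EPHX1 fell by 0.33 ± 0.06.

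Of 6 further genes of heme and iron 2 rose and 0 fell. BLVRA, which turns the biliverdin made by HMOX1 into bilirubin, rose by 0.36 ± 0.06 (limma adjusted p = 0.00424). HMOX2, the constitutive heme oxygenase, rose by 0.19 ± 0.06 (adjusted p = 0.0451), a call that of the omissions held only without menthol replicate 3 (adjusted p up to 0.13) and that ended with equal array medians (adjusted p = 0.0851).

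Of 10 genes that remove superoxide and peroxide 3 rose and 2 fell. The extracellular superoxide dismutase SOD3 rose by 0.31 ± 0.07. With an intensity-trended prior its SE was 0.11 (limma adjusted p = 0.035). The 3 genes that rose were dim, at the 28.7th (SOD3), 30.1st (GPX3) and 21.7th (GPX7) percentile of genes by brightness. The glutathione peroxidases GPX7 and GPX3 rose by 0.34 ± 0.10 and 0.27 ± 0.07, and GPX7 passed only without vehicle replicate 2 (adjusted p up to 0.0927) and GPX3 only without menthol replicate 2 or vehicle replicate 2 (up to 0.0721) among the omissions. GPX7 also missed the threshold with cyclic loess (0.0537) and GPX3 with an intensity-trended prior (0.0566). Catalase, CAT, fell by 0.35 ± 0.09 and the mitochondrial dismutase SOD2 by 0.31 ± 0.08. CAT did not pass without menthol replicate 1 or 3 or vehicle replicate 2 or 3 (adjusted p up to 0.0806), and SOD2 did not pass without menthol replicate 1 or vehicle replicate 2 or 3 (adjusted p up to 0.0716).

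Exporters of conjugated compounds split by gene, with 3 of 6 higher and 2 lower. ABCC4, ABCC5 and ABCC3 rose by 0.29 ± 0.06, 0.29 ± 0.07 and 0.27 ± 0.07. ABCC2 fell by 0.52 ± 0.06 (limma adjusted p = 0.00065) and ABCC1 by 0.47 ± 0.09. ABCC2 was dim (29.4th percentile by brightness), and with an intensity-trended prior its SE was 0.10 (limma adjusted p = 0.00076). ABCC5 and ABCC3 did not pass without menthol replicate 2 or vehicle replicate 1 or 2 (adjusted p up to 0.0627 and 0.0708).

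Of the 34 genes of the wider list that were named by rule, 17 passed in each of the 6 fits with 1 array left out. Among the control genes this was NFE2L3, and among the glutathione genes MGST3, GSTA4 and GSTP1. It was also so for PRDX2, for IDH1, ME3 and PGD, for PTGR1, ALDH3A1, ALDH3A2 and EPHX1, for BLVRA, for SOD3, and for ABCC1, ABCC2 and ABCC4. SOD3 and ABCC2 were the dimmest of these 17.

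Genes with the pattern most like a member over the 6 arrays were found by Pearson r on the log2 scale, as a description. For NFE2L2 they were ASAP1 (r = 0.994), SEC22C (0.990) and SPATA9 (0.967), and 9 genes in all had r above 0.95. For NFE2L2, 2 entries such as small RNAs or unnamed transcripts were passed over, and 0 for HMOX1 and for NQO1. For HMOX1 the nearest genes were TMEM14A (0.999), STX4 (0.999) and ZNF446 (0.998), and for NQO1 UAP1 (0.999), CEP15 (0.999) and SLC8B1 (0.999). The arrays fall into 2 groups that differ for HMOX1 and NQO1, and 1010 and 1218 genes had r above 0.95 with HMOX1 and with NQO1. The other genes named here for HMOX1 and NQO1 rose by 0.24 (ZNF446) to 0.84 (CEP15). Their direction follows from how they were picked and is not a separate result.

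The motif matches shown above stood before genes of each kind of result. GCLM, which rose, ME1, which fell, and KEAP1, TXNRD1 and OSGIN1, which did not pass, each had at least 1. NQO1, which rose, and SRXN1, which fell, had none in this window. The bases GCTTAGTCA stood before GCLM, with a change of 0.37, and before KEAP1, with a change of 0.16 that did not pass.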

How the data were processed

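RNA from 3 menthol and 3 vehicle samples was measured on Affymetrix whole-transcript arrays. The authors deposited 1 table of intensity values, made with RMA per the submitters' processing notes; RMA as published corrects background, quantile-normalizes and summarizes probesets. The values ran from 1.57 to 14835, were therefore linear, and were turned to log2. Signal below background cannot be told from this table, and the number of arrays limits the precision. Of 32321 probesets, 19158 had 1 gene symbol, 1388 several and 11775 none. The probeset with the highest mean was kept for each of 18404 genes. Groups were compared with limma 3.58.1 (R 4.3.3, lmFit and eBayes, group as the only term), two-sided. The alternatives were 3 other scalings, filters on dim genes, other uses of probesets, another prior (statmod), array weights, a replicate block, stricter thresholds and omission of each array.

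The members and gene lists were chosen with earlier results of these data known. The named genes are the 10 members, up to 3 increases and 3 decreases past the threshold in each role of the wider list, and the 3 genes most like NFE2L2, HMOX1 and NQO1. That last choice passed over small RNAs, antisense and unnamed transcripts, olfactory receptor genes and immune receptor segments. Deviations from the group mean had correlations of -0.01 to 0.09 between same-numbered arrays and -0.07 to 0.07 between the others. With 3 arrays per group these values cannot decide whether the replicate numbers pair the arrays. Motifs, exact tests and figures used Python 3.11.15.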

Additional observations from a re-analysis of the deposited data

How the results depend on the processing

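The calls on HMOX1, NQO1, GCLM, SRXN1 and ME1 kept their direction and passed in each of 16 alternative fits. Filters on dim genes, other uses of probesets, another prior and the replicate block could not alter the direction, since the change itself stayed the same. Only the adjusted p could differ under those settings. At an adjusted p under 0.01 GCLM did not pass, which left 2 members higher and 2 lower. Requiring at least 1.5-fold left 2 members higher and 0 lower. The change of TXNRD1 turned sign to 0.053 under quantile normalization, to 0.079 with cyclic loess and to 0.014 without vehicle replicate 3 (range over the omissions -0.0495 to 0.014). That of NFE2L2 turned to -0.019 without vehicle replicate 2 (range over the omissions -0.019 to 0.051). The cause was not tested. With 1 array left out, 9 to 14 genes of the wider list rose and 11 to 16 fell, and of all genes 1950 to 2402 rose and 1851 to 2472 fell, with fewer arrays in the fit. At an adjusted p under 0.01, 1382 of all genes rose and 1459 fell, and 6 and 9 of the wider list. At 1.5-fold, 550 of all genes rose and 482 fell, and 2 and 2 of the wider list. With the replicate block, 3 members were higher and 2 lower, 13 genes of the wider list rose and 18 fell, and 2483 of all genes rose and 2385 fell. The block ended the calls on MAFF, PRDX1, PRDX3, HMOX2 and GPX7. It changed the call on no member, on no other gene named by rule from the wider list, and not on CUL3 or NFE2L1. No paired design is stated in the labels. Detection calls are not in the table, so the precision at dim genes is not known.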
